A study of Homo sapiens with 21 samples.

Results

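The genes described here are 10 transcripts of matrix breakdown, measured by polyA-selected RNA-seq in PC-9 cells, an established human lung adenocarcinoma line that carries an activating deletion in EGFR. They were chosen by symbol from the 20111 genes listed in both tables of the study, and all 10 were found. They comprise 4 matrix metalloproteinases (MMP1, MMP2, MMP7 and MMP14), the 3 tissue inhibitors TIMP1, TIMP2 and TIMP3, and 3 genes of plasminogen activation (PLAU, PLAT and PLAUR). The question was how these transcripts differ between cells of the line sorted for low and for high surface EGFR, and whether the histone deacetylase inhibitor vorinostat changes them.

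Matrix metalloproteinases are zinc enzymes that cleave collagens, basement membrane and other extracellular proteins, and the TIMPs are small secreted proteins that bind and block their active site. PLAU (urokinase) and PLAT (tissue plasminogen activator) are serine proteases that turn plasminogen into plasmin, and PLAUR is the membrane anchored receptor that holds urokinase at the cell surface. In lung carcinomas these systems are best known for their part in invasion, and stromal fibroblasts and leukocytes make many of the metalloproteinases found in tumours.

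The 21 libraries formed 7 groups of 3. The untreated experiment held parental PC-9 cells and the EGFR-low and EGFR-high populations kept after 6 rounds of sorting from the edges of the EGFR distribution, all harvested 24 h after seeding. The vorinostat experiment held EGFR-low and EGFR-high cells given DMSO, the solvent, or 1 µM vorinostat for 72 h. All groups carry the EGFR deletion, and each sorted population is a maintained pool of 1 cell line, so it stands for that line only. Per the study's methods, each replicate came from a separate run of the experiment. Values are FPKM, fragments scaled to transcript length and to the depth of the library, which allow levels of different genes to be compared. The table headers do not name this unit, which was inferred from the values and from Cufflinks in the submitters' notes, and the comparisons between genes rest on it. The total number of reads was not given. Low values placed relative depth between 0.712 and 1.51 times that of the first parental library in the untreated experiment. In the vorinostat experiment the other 11 libraries had between 0.429 and 0.717 times the depth of the first EGFR-low DMSO library.

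Some libraries stood apart. In untreated cells, parental replicates 2 and 3 differed from their group mates by over 1 log2 unit at 1842 and 1003 genes. EGFR-low replicate 2 did so at 1677 genes, and the other untreated libraries at 61 to 653. In the vorinostat experiment the libraries labelled EGFR-low held 24.1 to 51.1 FPKM of NKX2-1, a lung lineage transcription factor that did not exceed 0.0690 FPKM in any untreated library. They also lacked 48 genes, TIMP3 among them, which were chosen after their values were seen as those under 1 FPKM in 5 of the 6 libraries labelled EGFR-low and at least 20 FPKM in all EGFR-high ones. The median of these 48 genes was 34.5 to 39.7 FPKM in the untreated EGFR-low libraries. EGFR-low DMSO replicate 1 held them at a median of 21.9% of their level in EGFR-high DMSO replicates 1 and 2. Conversely, EGFR-high DMSO replicate 3 held 12 genes otherwise near absent from the EGFR-high libraries at a median of 25.0% of the EGFR-low level. Replicate 1 of both vorinostat groups had the largest mitochondrial shares, 22.3% and 24.2% of summed FPKM. Whether these libraries are mixed, or the libraries labelled EGFR-low are of other cells than the untreated ones, was not tested. The lines of the vorinostat experiment are therefore named here only as labelled, and DMSO differences are also given without EGFR-low DMSO replicate 1 and EGFR-high DMSO replicate 3, a choice made after seeing the data. EGFR itself, the sorted gene, was 60.2, 26.5 and 60.6 FPKM in untreated EGFR-low libraries and 269, 160.5 and 243 FPKM in EGFR-high ones. Epithelial markers (EPCAM, KRT7, KRT8, KRT18, KRT19, CDH1) summed to 1552 to 4045 FPKM in every group. Fibroblast markers summed to at most 5.88 FPKM, with 1 of 7 reaching 1 FPKM. Of 5 leukocyte markers CD68 held 14.5 to 39.3 FPKM in every library. CD14 was 0.7395 to 3.92 FPKM in the libraries labelled EGFR-low of the vorinostat experiment and at most 0.600 FPKM elsewhere. LYZ was 1.845 FPKM in untreated EGFR-low replicate 2. The leukocyte list summed to 15.4 to 40.0 FPKM, and PTPRC did not exceed 0.0524 FPKM outside the 2 DMSO libraries with intermediate levels. Those held 0.805 FPKM of PTPRC, 7.28 FPKM of LYZ and 0.937 FPKM of CD3E in EGFR-low DMSO replicate 1, and 0.20, 2.76 and 0.290 FPKM in EGFR-high DMSO replicate 3. Of 3 endothelial markers found, with sums of 2.27 to 8.30 FPKM, KDR was 2.33 to 3.79 FPKM in all libraries labelled EGFR-low of the vorinostat experiment, 0.881 FPKM in EGFR-high DMSO replicate 3 and at most 0.103 FPKM elsewhere. The part of these transcripts in the results was not tested.

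The promoters of 3 members that differed between the lines of the vorinostat experiment are shown here. TIMP3 and MMP14 were lower and TIMP1 was higher in the libraries labelled EGFR-low, as described further on. The letters are the 250 bases before the RefSeq gene start on the gene's own strand (GRCh38.p14, 5′ to 3′), with each CG dinucleotide in capitals. The window of TIMP3 lies on the plus strand at chr22:32801455-32801704, that of MMP14 on the plus strand at chr14:22836335-22836584 and that of TIMP1 on the plus strand at chrX:47582186-47582435.
TIMP3: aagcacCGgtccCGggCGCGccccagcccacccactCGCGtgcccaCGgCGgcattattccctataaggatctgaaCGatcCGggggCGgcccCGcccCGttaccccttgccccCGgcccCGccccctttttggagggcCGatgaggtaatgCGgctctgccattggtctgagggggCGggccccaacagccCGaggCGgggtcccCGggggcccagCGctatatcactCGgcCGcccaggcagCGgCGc
MMP14: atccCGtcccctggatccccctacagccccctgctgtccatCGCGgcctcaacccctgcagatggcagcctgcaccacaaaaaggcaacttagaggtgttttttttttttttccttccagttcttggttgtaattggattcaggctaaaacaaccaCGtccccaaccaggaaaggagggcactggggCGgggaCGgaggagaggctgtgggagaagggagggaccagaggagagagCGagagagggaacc
TIMP1: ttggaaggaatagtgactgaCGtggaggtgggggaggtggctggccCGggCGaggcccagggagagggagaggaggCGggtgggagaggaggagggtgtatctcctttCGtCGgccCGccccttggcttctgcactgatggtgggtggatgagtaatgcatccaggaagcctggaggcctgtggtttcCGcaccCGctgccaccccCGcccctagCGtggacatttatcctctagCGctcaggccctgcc
The TIMP3 window held 26 CG dinucleotides, and 19.6% of all 35116 such windows held as many. The MMP14 window held 7, against a median of 11 over all windows, and the TIMP1 window held 12.

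A second pair is shown for a motif they share. The letters TGAGTCA, or TGACTCA on the other strand, are the classical AP-1 site, and 4.20% of all windows of this length held 1. Of the 6 members with a window (7 windows, as PLAU has 2), PLAUR at chr19:43670170-43670419 and MMP7 at chr11:102530748-102530997, both on the minus strand, held it, here in capitals. It began 186 bases before the RefSeq start of PLAUR and 67 bases before that of MMP7.
PLAUR: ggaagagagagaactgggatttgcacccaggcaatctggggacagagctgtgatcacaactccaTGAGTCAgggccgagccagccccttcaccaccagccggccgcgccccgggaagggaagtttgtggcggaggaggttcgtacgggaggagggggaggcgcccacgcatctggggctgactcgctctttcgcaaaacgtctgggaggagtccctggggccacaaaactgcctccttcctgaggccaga
MMP7: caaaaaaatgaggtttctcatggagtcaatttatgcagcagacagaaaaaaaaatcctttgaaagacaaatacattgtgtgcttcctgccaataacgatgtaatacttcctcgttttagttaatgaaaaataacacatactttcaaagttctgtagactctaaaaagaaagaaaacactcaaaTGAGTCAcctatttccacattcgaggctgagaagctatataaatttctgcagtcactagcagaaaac
A match describes the letters only, and no binding or methylation was measured.

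In GRCh38 (GENCODE 29), MMP1 lies at chr11:102789920-102798160 and MMP7 at chr11:102520508-102530753, both on the minus strand of the metalloproteinase cluster. MMP2 lies at chr16:55389700-55506691 and MMP14 at chr14:22836557-22849027, both on the plus strand. TIMP1 at chrX:47582313-47586789 lies within SYN1 and TIMP3 at chr22:32801701-32863043 within SYN3, each on the opposite strand to its host. TIMP2 is at chr17:78852977-78925387 on the minus strand, PLAU at chr10:73909177-73917497 on the plus strand, PLAUR at chr19:43646095-43670547 on the minus strand and PLAT at chr8:42175233-42207724 on the minus strand. The GENCODE genes of PLAUR and TIMP1 begin upstream of the RefSeq starts used for the windows. By GENCODE, the PLAUR window shown, with its AP-1 letters, lies inside the gene, and the TIMP1 window does so in part. Whether strand was used in counting is not given in the sources used here, but the overlapping genes were low. SYN1 reached at most 0.00757 FPKM, SYN3 0.191 FPKM, the gene listed as DDC8 (CEP295NL), which overlaps TIMP2, 0.190 FPKM, and C10orf55, which overlaps PLAU, 0.917 FPKM.

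The secreted metalloproteinases were scarcely expressed. MMP1 (interstitial collagenase) ranged from 0.0394 to 0.227 FPKM over the 9 untreated libraries and passed 1 FPKM in a single library of the series, EGFR-low DMSO replicate 1 with 1.07 FPKM. MMP2 (gelatinase A) reached at most 0.518 FPKM, in EGFR-high vorinostat replicate 1. MMP7 (matrilysin) reached at most 0.645 FPKM and was listed at 0 in 5 of the 21 libraries. Thus none of these 3 met the requirement of 1 FPKM in 3 libraries of an experiment, and they were not tested with the other genes. MMP1 was 1.07, 0.804 and 0.523 FPKM in the EGFR-low DMSO libraries and 0.368, 0.382 and 0.413 FPKM after vorinostat, so these groups did not overlap (exact two-sided permutation test, p = 0.1, the smallest that 3 against 3 libraries allow). Between these EGFR-low groups 9.46% of all tested genes did not overlap. In EGFR-high DMSO libraries MMP1 was 0.0519, 0.0384 and 0.388 FPKM, the last of them the library that held EGFR-low genes. After vorinostat MMP1 was 0.0515, 0.0694 and 0.0326 FPKM in EGFR-high libraries, which overlapped with DMSO. MMP7 was 0.0407, 0.0564 and 0.195 FPKM in EGFR-high DMSO and 0, 0.0302 and 0 FPKM in EGFR-high vorinostat libraries. These groups did not overlap, beside 5.33% of all tested genes, whereas MMP7 overlapped in EGFR-low.

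MMP14, a membrane anchored collagenase that also activates the MMP2 proenzyme, was the only member of the 4 metalloproteinases that passed the requirement. It was 4.49, 3.83 and 3.48 FPKM in parental, 5.71, 2.23 and 6.09 FPKM in EGFR-low and 4.28, 3.19 and 5.39 FPKM in EGFR-high cells. The 3 groups overlapped, and EGFR-low replicate 2 was the lowest of all. The EGFR-low minus EGFR-high difference was 0.04 on the log2(FPKM + 1) scale (95% interval -0.64 to 0.72). In the vorinostat experiment MMP14 was 1.51, 0.433 and 0.308 FPKM in EGFR-low DMSO and 0.284, 0.318 and 0.415 FPKM in EGFR-low vorinostat libraries. EGFR-high libraries stayed near the untreated level, with 4.89, 4.30 and 4.12 FPKM in DMSO and 4.06, 5.13 and 3.75 FPKM after vorinostat. In that experiment MMP14 thus met the requirement through the EGFR-high libraries and EGFR-low DMSO replicate 1 only.

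**Figure D1:**
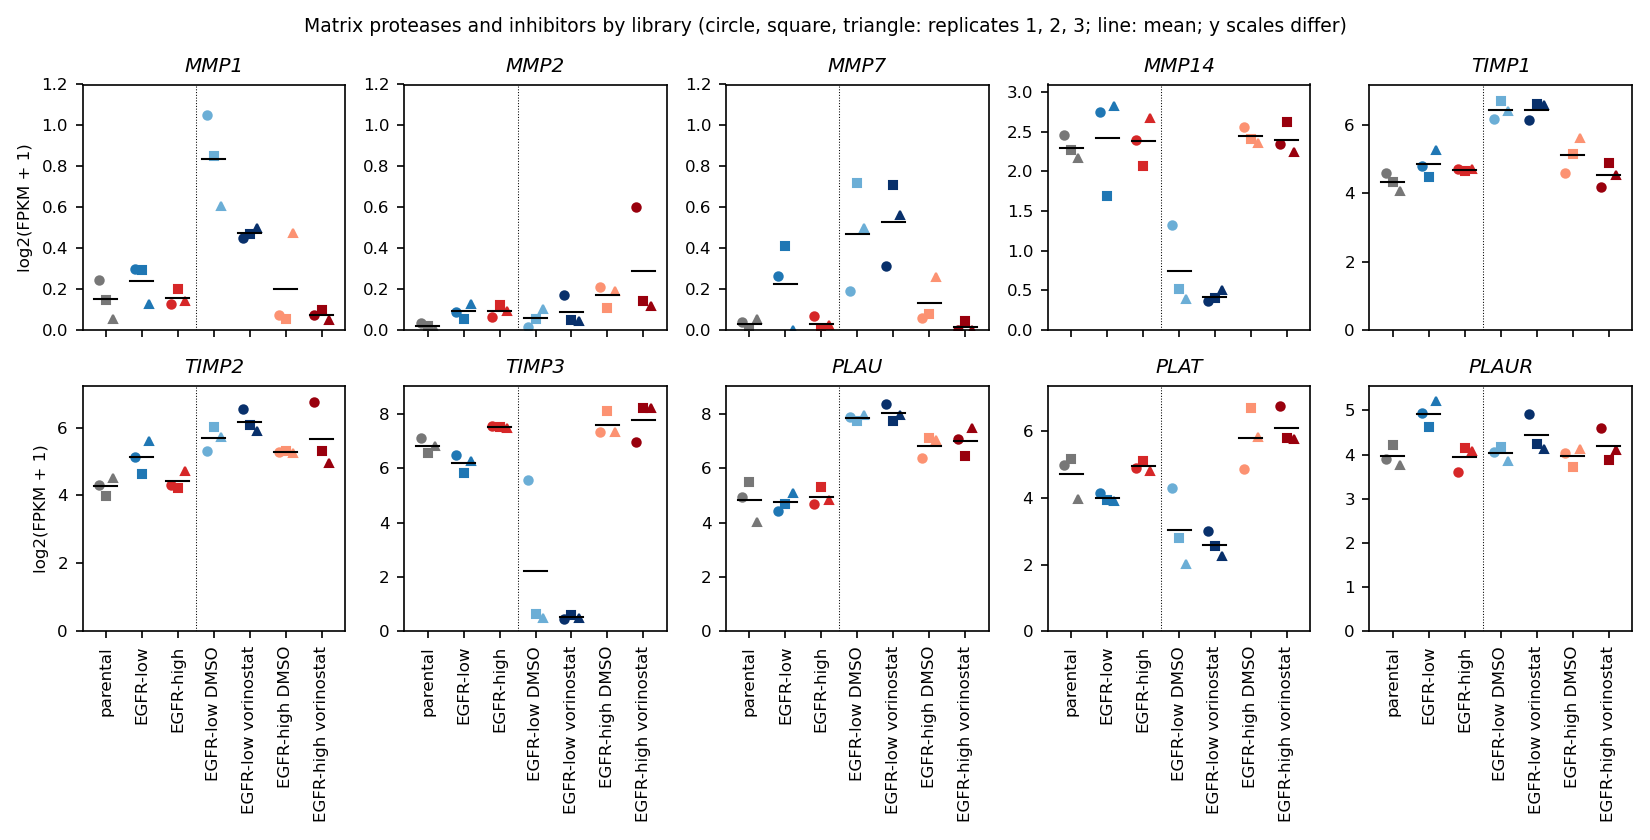
Level of each of the 10 genes as log2(FPKM + 1), with 1 marker per library (circle, square and triangle for replicates 1, 2 and 3), a line at the mean of each group and a dotted line between the experiments. MMP1, MMP2 and MMP7 stay close to 0, whereas TIMP3 and MMP14 drop in 5 of the 6 libraries labelled EGFR-low of the vorinostat experiment, with EGFR-low DMSO replicate 1 in between.

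Among the inhibitors, TIMP3, which binds to the matrix itself rather than diffusing, was the most abundant in untreated cells. TIMP3 was 138, 94.4 and 112 FPKM in parental, 90.0, 55.6 and 76.5 FPKM in EGFR-low and 189.6, 182 and 179.5 FPKM in EGFR-high cells. The order was EGFR-high, parental, EGFR-low, and no 2 of these groups overlapped. EGFR-low cells held less TIMP3 than EGFR-high cells, by 1.33 ± 0.26 on the log2(FPKM + 1) scale (± SE, limma adjusted p = 0.0157, n = 3 each), with means of 74.0 ± 17.3 and 183.7 ± 5.27 FPKM (± SD). In this fit, which did not use the replicate number, TIMP3 was the only 1 of 7 tested members called, and 3.81% of all 11305 tested genes were called. The call was not retained without EGFR-low replicate 2 or 3 or any single EGFR-high replicate, when the adjusted p lay between 0.0545 and 0.0719, although the difference stayed between -1.48 and -1.14 on the log2 scale with 1 library left out. In bulk libraries such as these, fewer cells with a transcript and less of it per cell cannot be told apart. Against parental cells the TIMP3 differences were -0.64 for EGFR-low (adjusted p = 0.291) and 0.69 for EGFR-high (adjusted p = 0.507).

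TIMP2, the inhibitor that also bridges MMP14 and the MMP2 proenzyme, pointed the other way. It was 18.8, 14.9 and 22.1 FPKM in parental, 33.9, 23.8 and 47.7 FPKM in EGFR-low and 18.9, 17.6 and 25.2 FPKM in EGFR-high cells. Within each replicate number the EGFR-low library was the highest of the 3, but EGFR-low replicate 2 lay below EGFR-high replicate 3. The EGFR-low minus EGFR-high difference was 0.71 ± 0.29 on the log2 scale (adjusted p = 0.305). In an alternative fit that blocked on replicate, the same difference passed at an adjusted p of 0.0330. There 3 members were called in place of 1, and 965 genes in place of 431. Same-numbered EGFR-low and EGFR-high libraries deviated together (r = 0.343, 0.73 and 0.689). This fit also held the parental libraries, however. Parental replicate 3 did not deviate together with replicate 3 of EGFR-low (r = -0.092) or of EGFR-high (r = -0.00229). The untreated libraries thus support such a block only in part.

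TIMP1, the broad secreted inhibitor, was 23.0, 19.1 and 15.7 FPKM in parental, 26.9, 21.0 and 37.7 FPKM in EGFR-low and 24.9, 24.3 and 25.0 FPKM in EGFR-high cells. The EGFR-low group spanned the EGFR-high group on both sides, and the difference of 0.16 had a 95% interval of -0.41 to 0.73 on the log2 scale. The make-up of the summed TIMP transcripts therefore varied mainly with TIMP3 and TIMP2. TIMP3 took 80.2% ± 1.80 of the TIMP FPKM in EGFR-high, 75.0% ± 1.65 in parental and 54.1% ± 6.31 in EGFR-low cells (± SD, n = 3). The shares did not overlap between EGFR-low, with 47.3 to 59.7%, and the other groups, which held 73.5 to 81.3%.

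Of the plasminogen activators, PLAU and PLAT had like levels in untreated cells. PLAU was 29.8, 43.8 and 15.5 FPKM in parental, 20.8, 25.1 and 33.1 FPKM in EGFR-low and 24.6, 39.2 and 27.8 FPKM in EGFR-high cells. These 3 groups overlapped, and the widest spread lay within the parental group. PLAT was 30.2, 34.9 and 14.6 FPKM in parental, 16.8, 14.3 and 14.0 FPKM in EGFR-low and 28.7, 33.5 and 26.9 FPKM in EGFR-high cells. Every EGFR-low library was below every EGFR-high library for PLAT, and parental replicate 3 lay with the EGFR-low libraries. The PLAT difference of -0.93 ± 0.31 on the log2 scale between EGFR-low and EGFR-high did not pass (adjusted p = 0.158, and 0.0521 with the replicate block).

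PLAUR, the urokinase receptor, was 13.9, 17.5 and 12.6 FPKM in parental, 30.0, 23.7 and 36.0 FPKM in EGFR-low and 11.1, 16.8 and 15.9 FPKM in EGFR-high cells. All EGFR-low libraries lay above all others, and parental and EGFR-high libraries overlapped. The EGFR-low mean of 29.9 ± 6.16 FPKM was 2.05 times the EGFR-high mean of 14.6 ± 3.02 FPKM. On the log2 scale the difference was 0.99 ± 0.26, which missed the threshold (adjusted p = 0.0642) as deposited and passed with the replicate block (0.0361), with median-of-ratios scaling (0.0354) and with quantile normalization (0.0346). Against parental cells the PLAUR difference was 0.97 ± 0.26 (adjusted p = 0.107). Of the 7 tested members, 3 did not overlap between EGFR-low and EGFR-high (PLAUR higher, TIMP3 and PLAT lower), where 20.6% of all tested genes did not overlap. Against parental cells, 3 members did not overlap in EGFR-low (TIMP2 and PLAUR higher, TIMP3 lower), beside 17.1% of all tested genes, and 2 in EGFR-high (TIMP1 and TIMP3 higher), beside 16.2%.

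No member was called in EGFR-low against parental cells, where limma called 1.60% of all tested genes, nor in EGFR-high against parental cells, where it called 0.0708%. At an unadjusted p under 0.05, limma called 1668 and 1093 of 11305 genes in these comparisons. The 3 untreated comparisons share their libraries, so their values are not independent of each other.

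In the vorinostat experiment the 2 lines differed at 5 of the 7 tested members in DMSO, against 51.8% of all 12236 tested genes. The same 5 were called after vorinostat, where 59.0% of all tested genes were called. Of the same 7, 6 did not overlap between the lines in DMSO and 5 after vorinostat, beside 69.3% and 60.8% of all tested genes. The members' shares lie near these backgrounds, and the libraries labelled EGFR-low here differ from the untreated EGFR-low libraries as described. The median difference over all tested genes was 0.12 in DMSO and 0.16 after vorinostat on the log2 scale, and the member differences below are to be read relative to it.

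TIMP3 was 46.2, 0.543 and 0.414 FPKM in the libraries labelled EGFR-low DMSO and 0.358, 0.521 and 0.410 FPKM in those labelled EGFR-low vorinostat. In EGFR-high libraries TIMP3 was 160.5, 273 and 159 FPKM in DMSO and 124, 296 and 294 FPKM after vorinostat. Hence TIMP3 was close to 0 in 5 of 6 EGFR-low libraries and had its highest values of the series in EGFR-high ones, and the lines did not overlap. In this experiment TIMP3, like MMP14, met the requirement through the EGFR-high libraries and EGFR-low DMSO replicate 1 only. Its tests are therefore of a gene that entered because the EGFR-high line was high. The differences were -5.36 ± 1.02 in DMSO (adjusted p = 0.00129) and -7.28 ± 1.02 after vorinostat (adjusted p = 0.000117) on the log2(FPKM + 1) scale. Without EGFR-low DMSO replicate 1 the DMSO difference was -7.02 (adjusted p = 1.17e-07). That library was set apart by its intermediate levels of genes near absent from its group, and TIMP3 is among those genes. The larger difference therefore partly follows from the choice, and no conclusion is drawn from it. TIMP3 in EGFR-low DMSO replicate 1 was 46.2 FPKM against 160.5 and 273 FPKM in EGFR-high DMSO replicates 1 and 2.

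PLAT was also lower in the libraries labelled EGFR-low. It was 18.5, 6.00 and 3.05 FPKM in EGFR-low DMSO and 6.94, 4.81 and 3.73 FPKM in EGFR-low vorinostat libraries, against 28.2, 102 and 55.8 FPKM in EGFR-high DMSO and 107, 53.7 and 52.7 FPKM in EGFR-high vorinostat libraries. EGFR-low DMSO replicate 1 was again the highest of its line, and no EGFR-low library reached the lowest EGFR-high value. The difference in PLAT was -2.76 ± 0.56 in DMSO (adjusted p = 0.00178) and -3.50 ± 0.56 after vorinostat (adjusted p = 0.000257). The MMP14 difference was -1.70 ± 0.22 in DMSO (adjusted p = 0.000327) and -1.98 ± 0.22 after vorinostat (adjusted p = 4.29e-05), on a scale that understates changes of genes near 1 FPKM. Without EGFR-low DMSO replicate 1 and EGFR-high DMSO replicate 3 the DMSO difference was -3.36 for PLAT (adjusted p = 0.000731) and -2.03 for MMP14 (adjusted p = 7.70e-06).

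The other 2 called members were higher in the libraries labelled EGFR-low. TIMP1 was 71.2, 103 and 84.0 FPKM in EGFR-low DMSO and 68.8, 95.8 and 93.8 FPKM in EGFR-low vorinostat libraries, against 23.1, 34.1 and 47.7 FPKM in EGFR-high DMSO and 17.2, 28.7 and 22.2 FPKM in EGFR-high vorinostat libraries. The lines did not overlap, and the highest EGFR-high value came from EGFR-high DMSO replicate 3, the library that held EGFR-low genes. The TIMP1 difference was 1.32 ± 0.26 in DMSO (adjusted p = 0.00149) and 1.89 ± 0.26 after vorinostat (adjusted p = 9.86e-05).

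PLAU, urokinase itself, was 236.6, 215 and 249 FPKM in EGFR-low DMSO and 335, 216 and 248 FPKM in EGFR-low vorinostat libraries, against 83.0, 136.5 and 129.8 FPKM in EGFR-high DMSO and 135, 85.9 and 178 FPKM in EGFR-high vorinostat libraries. Again every EGFR-low library was above every EGFR-high library. The PLAU difference was 1.03 ± 0.26 in both treatments (adjusted p = 0.00679 in DMSO and 0.00541 after vorinostat). Without the same 2 DMSO libraries the DMSO difference was 1.11 for PLAU (adjusted p = 0.0216) and 1.69 for TIMP1 (adjusted p = 0.000555). All PLAU values of this experiment exceeded the highest untreated value of 43.8 FPKM, although the experiments were not tested against each other and differ in time and treatment. The ratio of PLAU to PLAT FPKM was 12.8 to 81.7 in EGFR-low DMSO and 44.8 to 66.4 in EGFR-low vorinostat libraries. It was 1.34 to 2.95 in EGFR-high DMSO and 1.26 to 3.37 in EGFR-high vorinostat libraries, and 0.856 to 2.36 over all untreated libraries.

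**Figure D2:**
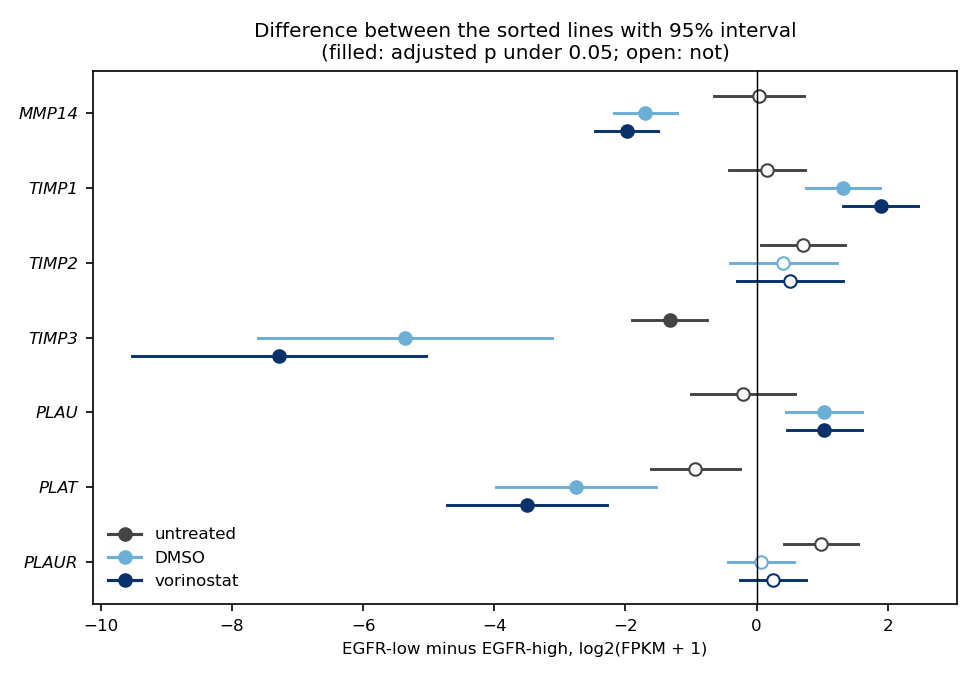
Difference between the EGFR-low and EGFR-high lines for the 7 tested members, on the log2(FPKM + 1) scale, with the 95% interval of the limma fit, in untreated, DMSO and vorinostat libraries. Filled points passed an adjusted p of 0.05. TIMP3 is lower in the libraries labelled EGFR-low in all 3 comparisons. MMP14, TIMP1, PLAU and PLAT passed only in the libraries of the vorinostat experiment, which were fitted separately and not tested against the untreated ones. The libraries labelled EGFR-low there differ from the untreated EGFR-low libraries, so they are no repeat of the untreated comparison.

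TIMP2 and PLAUR, which leaned towards EGFR-low in untreated cells, were not called between the lines here. TIMP2 was 38.9, 63.8 and 52.1 FPKM in EGFR-low DMSO against 37.7, 38.4 and 37.4 FPKM in EGFR-high DMSO libraries. After vorinostat TIMP2 was 92.1, 66.3 and 58.9 FPKM in EGFR-low and 106, 38.6 and 29.9 FPKM in EGFR-high libraries. Replicate 1 was the highest TIMP2 value of both vorinostat groups and replicate 1 the lowest of the EGFR-low DMSO group. Without EGFR-high vorinostat replicate 1 the TIMP2 difference after vorinostat rose from 0.51 (adjusted p = 0.260) to 1.04 (adjusted p = 0.00212). Without replicate 1 of every group, an alternative chosen after seeing the data, it was 0.59 in DMSO (adjusted p = 0.0127) and 0.86 after vorinostat (adjusted p = 0.00194).

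PLAUR was 15.7, 16.9 and 13.4 FPKM in EGFR-low DMSO and 15.5, 12.3 and 16.4 FPKM in EGFR-high DMSO libraries, where the lines overlapped and the difference was 0.06 (95% interval -0.44 to 0.57 on the log2 scale). After vorinostat PLAUR was 29.5, 17.9 and 16.6 FPKM in EGFR-low and 23.3, 13.7 and 16.1 FPKM in EGFR-high libraries, with replicate 1 highest in each. Those libraries had the mitochondrial shares of 22.3% and 24.2% and differed from their group mates by over 1 log2 unit at 338 and 931 genes, against 36 to 225 for their mates. The part of library quality in these TIMP2 and PLAUR values was not tested.

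**Figure D3:**
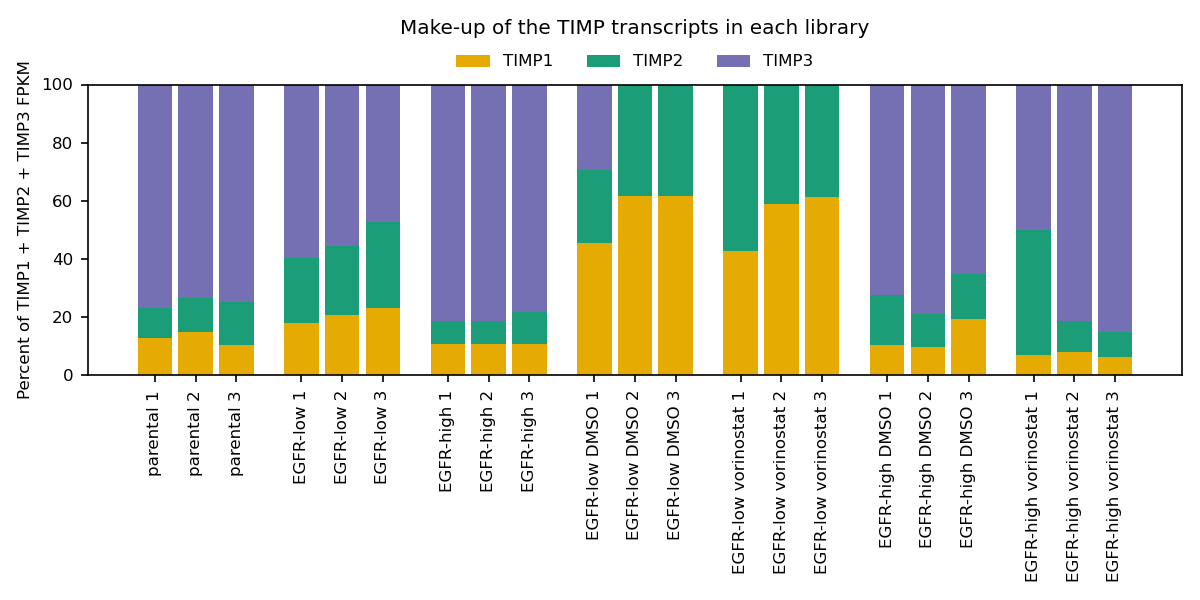
Share of TIMP1, TIMP2 and TIMP3 in their summed FPKM, 1 bar per library from 0 to 100%. TIMP3 takes 47.3 to 81.3% in untreated libraries and 50.1 to 84.9% in EGFR-high libraries of the vorinostat experiment, but 0.222 to 0.324% in 5 of the 6 libraries labelled EGFR-low there, with 29.6% in EGFR-low DMSO replicate 1.

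The summed TIMP FPKM was lower in every EGFR-low library than in every EGFR-high library of the same experiment. In untreated cells it was 128 to 180 FPKM in parental, 100.5 to 162 FPKM in EGFR-low and 224 to 233.5 FPKM in EGFR-high libraries. In the vorinostat experiment it was 137 to 168 FPKM in EGFR-low DMSO and 153 to 163 FPKM in EGFR-low vorinostat libraries. The EGFR-high sums were 221 to 346 FPKM in DMSO and 247.5 to 363 FPKM after vorinostat.

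No member was called between vorinostat and DMSO. In both lines limma called 0 of 12236 genes between vorinostat and DMSO (0% of genes), with 115 genes in EGFR-low and 409 in EGFR-high at an unadjusted p under 0.05. The interaction of treatment and line also called 0 genes (215 at an unadjusted p under 0.05). These unadjusted counts are 0.94%, 3.34% and 1.76% of the tested genes. That is fewer than an unadjusted threshold of 0.05 passes on average where nothing differs. The largest member difference in EGFR-low cells was TIMP3 at -1.71 (95% interval -3.95 to 0.53), and without EGFR-low DMSO replicate 1 it was -0.05. In EGFR-high cells TIMP1 showed -0.57 (95% interval -1.14 to -0.01, adjusted p = 0.940). None of the 7 tested members separated vorinostat from DMSO libraries without overlap in either line, where 9.46% of tested genes in EGFR-low and 5.33% in EGFR-high did. The intervals of TIMP1, PLAU and PLAUR stayed within 1.14 log2 units of 0 in both lines. In EGFR-low the interval of TIMP2 reached 1.295 and that of PLAT -1.666. The interval of MMP14 in EGFR-low, -0.80 to 0.15, does not bound its fold change, as its values near or under 1 FPKM are compressed on this scale. The intervals of TIMP3 reached 3.95, so a change of TIMP3 of several fold was not detectable with these replicates.

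The rest of the pathway was described with 6 lists of 92 genes. Of 19 other matrix metalloproteinases, 18 were found and 1 reached the requirement in the untreated experiment, where it was not called. In the vorinostat experiment 4 reached it, and 2 of them were higher in the libraries labelled EGFR-low in each treatment. Of all tested genes, 51.8% were called in DMSO and 59.0% after vorinostat, so this count lies near the background. These were MMP13 (collagenase 3) and MMP11 (stromelysin 3), both under 0.27 FPKM in all untreated libraries. Both met the requirement through the libraries labelled EGFR-low, as only EGFR-high DMSO replicate 3 of the EGFR-high libraries reached 1 FPKM. The tests below are therefore of genes that entered because that line was high. MMP13 was 13.0, 15.7 and 7.34 FPKM in EGFR-low DMSO and 0.0217, 0.0267 and 4.68 FPKM in EGFR-high DMSO libraries (difference 2.78 ± 0.60, adjusted p = 0.00268). MMP11 was 5.24, 6.70 and 7.45 FPKM in EGFR-low DMSO and 0.490, 0.146 and 1.59 FPKM in EGFR-high DMSO libraries (difference 2.17 ± 0.30, adjusted p = 0.000327). In both cases EGFR-high DMSO replicate 3 was the highest of its group. Without this library and EGFR-low DMSO replicate 1 the differences were 3.53 for MMP13 and 2.63 for MMP11 (adjusted p = 0.000194 and 4.01e-05), and 49.5% of 12213 tested genes were called. The gelatinase MMP9 did not exceed 0.488 FPKM anywhere.

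Of 14 ADAM and ADAMTS proteases 10 were tested. None was called in untreated cells, 2 were higher and 6 lower in EGFR-low DMSO, and 8 were lower in EGFR-low vorinostat libraries, beside 51.8% and 59.0% of all tested genes called in these comparisons. The largest differences were those of ADAMTS12 (-3.52 ± 0.53 in DMSO), a secreted protease of cartilage matrix proteins, and ADAM19 (-2.41 ± 0.34 in DMSO). Of 4 further regulators TIMP4, the remaining inhibitor of the family, was lower in EGFR-low by 2.67 in DMSO and 3.73 after vorinostat. TIMP4 was 2.58, 0.156 and 0.0410 FPKM in EGFR-low DMSO and 5.05, 18.2 and 8.64 FPKM in EGFR-high DMSO libraries. Within the EGFR-low DMSO group it was near 0 except in replicate 1. Of the libraries labelled EGFR-low, only DMSO replicate 1 reached 1 FPKM of ADAMTS12, ADAM19 or TIMP4. These genes thus met the requirement through the EGFR-high libraries, and their tests are of genes that entered because that line was high. Without the same 2 libraries the DMSO differences were -4.59 for ADAMTS12, -2.98 for ADAM19 and -3.30 for TIMP4, and 1 of the 10 ADAM and ADAMTS genes was higher and 5 were lower. BSG (basigin), a membrane inducer of metalloproteinases, was higher in EGFR-low vorinostat libraries by 0.48 ± 0.13 (adjusted p = 0.00877).

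Of 15 further genes of the plasminogen system 10 were tested. None was called in the untreated comparisons, whereas between the lines 2 were higher and 6 lower in EGFR-low DMSO, and 2 were higher and 7 lower in EGFR-low vorinostat libraries, where 51.8% and 59.0% of all tested genes were called. The median difference of the list was -0.89 in DMSO, where that of all genes was 0.12. SERPINE2 (protease nexin 1), an inhibitor of urokinase and thrombin, was 15.3, 0.280 and 0.266 FPKM in EGFR-low DMSO and 45.4, 56.0 and 51.5 FPKM in EGFR-high DMSO libraries, a difference of -4.12 ± 0.75 (adjusted p = 0.000952). F3 (tissue factor), the starter of coagulation, was 25.6, 9.65 and 11.8 FPKM against 137, 81.5 and 65.3 FPKM in the same groups (-2.57 ± 0.43, adjusted p = 0.000646). Without the same 2 libraries the differences were -5.34 for SERPINE2 and -3.19 for F3, and the list again had 2 genes higher and 6 lower. SERPINE2 is among the genes by which EGFR-low DMSO replicate 1 was set apart, so its larger difference partly follows from that choice. SERPINE2 also met the requirement through the EGFR-high libraries and EGFR-low DMSO replicate 1 only.

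The genes most like a member were sought among 11118 genes tested in both experiments, by the smaller of the Pearson correlations of log2(FPKM + 1) over the 9 untreated and over the 12 other libraries. These correlations describe libraries that share groups, lines and depth, and they carry no test. For TIMP3 they were CTDSPL (0.971), ARHGAP23 (0.971) and SHISA9 (0.960), for PLAUR RAP2B (0.882), AVPI1 (0.867) and ITGB3 (0.856), and for MMP14 PEX5 (0.959), LEMD2 (0.942) and MYO9B (0.939). SHISA9 was 2.44, 0.0376 and 0.0378 FPKM in EGFR-low DMSO libraries, with replicate 1 the highest as for TIMP3. ITGB3, the integrin beta 3 chain, was 4.60, 6.15 and 7.71 FPKM in untreated EGFR-low cells and reached no more than 0.743 FPKM in parental and untreated EGFR-high cells. In the vorinostat experiment ITGB3 was 1.98 to 7.38 FPKM in the libraries labelled EGFR-low and 0.748 to 6.79 FPKM in EGFR-high ones, so the lines overlapped.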

How the data were processed

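PolyA-selected RNA-seq libraries of PC-9 cells were analysed from 2 tables of FPKM per gene that the authors deposited, 1 per experiment, with 1 column per library. The submitters' processing notes name STAR 2.5.1b, Cufflinks 2.2.1, DESeq2 1.10.1 and hg19; the gene annotation and the strand of counting are not given in the sources used here. FPKM as deposited were not rescaled. Relative depth was read from the steps between low values, and 70 of 72 and 130 of 132 ordered library pairs agreed. The members and lists were chosen with earlier results of these data known.

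Genes that reached 1 FPKM in 3 or more libraries of an experiment entered limma 3.58.1 (R 4.3.3, eBayes with trend) on log2(FPKM + 1), with 1 mean per group, all libraries of an experiment in 1 fit, and Benjamini-Hochberg adjustment over all tested genes (threshold 0.05). A fold change on this scale understates that of low genes. The requirement counts libraries of any group, so a gene high in only 1 line could enter through that line. For single values the test was an exact two-sided permutation (scipy 1.17.1). The fits were tested on simulated data. Same-numbered libraries deviated together for untreated EGFR-low and EGFR-high (r = 0.343, 0.730 and 0.689). They also did for EGFR-low and EGFR-high in vorinostat (0.353, 0.351 and 0.163) and for EGFR-low in vorinostat and DMSO (0.267, 0.302 and 0.329). The differences reported are nonetheless from fits without pairing. The replicate block, which allows for pairing, was fitted as an alternative for every comparison. Members are all named. From each pathway list, up to 2 called genes with the largest difference per comparison were named. Genes were joined to GENCODE 29 and RefSeq (GRCh38) by symbol only, since the builds differ. PECAM1 and MMP12 were not analysed here. The values of 1 gene of the plasminogen list are not reported here.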

Additional observations from a re-analysis of the deposited data

How the results depend on the processing

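Alternatives were other pseudocounts (0.1 and 5), no filter or one of 5 FPKM, median-of-ratios and quantile scaling, fits of the compared groups alone, no trend, the replicate block and leaving out each library. The 135 values of the member counts kept within 1.5 times of those reported except for 9. In untreated EGFR-low against EGFR-high cells the count was 1 and became 2 with median-of-ratios scaling, 2 with quantile normalization, 3 with the replicate block and 0 to 1 with 1 library left out. Against parental cells the EGFR-low count was 0 and became 1 (TIMP2, adjusted p = 0.0275) with the replicate block, where same-numbered libraries did not all deviate together (r = 0.587, 0.416 and -0.092). The block changed no other call. Without a filter on low values MMP1 passed between the lines in DMSO (0.64, adjusted p = 0.00315) and after vorinostat (0.40, adjusted p = 0.0230), and MMP7 after vorinostat (0.51, adjusted p = 0.00985). With a filter of 5 FPKM MMP14 was not tested in the vorinostat experiment. Its difference in DMSO spanned -2.68 to -0.72 over the settings that used all libraries, the ends coming from the pseudocounts. Of 938 recomputed log2 differences of single members, 65 had the opposite sign to the value reported (given in brackets), none of them with a call in either setting. The ranges that follow are over the fits with libraries left out. In EGFR-low against EGFR-high, MMP14 (0.040) was -0.16 to 0.40. TIMP1 (0.16) was -0.054 to 0.35. In EGFR-low against parental, MMP14 (0.12) was -0.066 with quantile scaling and -0.078 to 0.49. PLAU (-0.077) was -0.47 to 0.25. In EGFR-high against parental, MMP14 (0.084) was -0.0018 with median-of-ratios scaling, -0.12 with quantile scaling and -0.063 to 0.24. PLAUR (-0.019) was -0.12 to 0.15. PLAU (0.13) was -0.26 to 0.46. TIMP2 (0.14) was -0.010 to 0.26. PLAT (0.24) was -0.13 to 0.47. In EGFR-low DMSO against EGFR-high DMSO, PLAUR (0.062) was -0.058 with median-of-ratios scaling, -0.046 with quantile scaling and -0.056 to 0.15. In EGFR-low vorinostat against EGFR-high vorinostat, PLAUR (0.24) was -0.0012 to 0.45. In EGFR-low vorinostat against EGFR-low DMSO, TIMP1 (0.00029) was -0.014 with quantile scaling and -0.13 to 0.15. PLAU (0.16) was -0.0033 without replicate 1 of every group and -0.013 to 0.30. PLAT (-0.45) was -0.96 to 0.18. In EGFR-high vorinostat against EGFR-high DMSO, MMP14 (-0.039) was 0.012 with median-of-ratios scaling, 0.0082 with quantile scaling, 0.051 without replicate 1 of every group and -0.15 to 0.038. TIMP2 (0.39) was -0.15 without replicate 1 of every group and -0.15 to 0.75. PLAT (0.30) was -0.50 without replicate 1 of every group and -0.17 to 0.75. TIMP3 (0.21) was -0.0013 to 0.62. PLAU (0.16) was -0.10 without replicate 1 of every group and -0.080 to 0.44. In the interaction of vorinostat and sorted line, PLAU (0.0043) was -0.043 with median-of-ratios scaling, -0.043 with quantile scaling and -0.28 to 0.24. TIMP2 (0.10) was -0.26 to 0.63. PLAUR (0.18) was -0.063 to 0.39. MMP14 (-0.28) was -0.46 to 0.048. PLAT (-0.75) was 0.48 without replicate 1 of every group. The 5 members called between the lines of the vorinostat experiment were also called without EGFR-low DMSO replicate 1 and EGFR-high DMSO replicate 3 together, a choice made after seeing the data. For TIMP3 this is no separate check, as it is among the genes that set EGFR-low DMSO replicate 1 apart. Without read totals, no counting interval could be given.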

Other observations

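Other protease families of the same compartments were also measured. Of 17 cathepsins and their inhibitors 14 were tested in untreated cells, where CTSV (cathepsin L2), a lysosomal elastase, stood lower in EGFR-low libraries. CTSV was 8.14, 6.95 and 8.48 FPKM in EGFR-low and 30.2, 26.1 and 28.4 FPKM in EGFR-high cells (-1.72 ± 0.24 on the log2(FPKM + 1) scale, limma adjusted p = 0.00227). In DMSO the levels had the opposite order, with 26.6, 25.5 and 31.6 FPKM in EGFR-low and 10.0, 8.23 and 13.4 FPKM in EGFR-high libraries. CST6 (cystatin M), an inhibitor of cathepsins, was also lower in untreated EGFR-low cells (-2.03 ± 0.46, adjusted p = 0.0315). CTSV and CST6 were the 2 genes called of the 14 in this comparison, beside 3.81% of all tested genes. All 17 were tested in the vorinostat experiment, where 10 were higher and 2 lower in EGFR-low DMSO libraries, beside 51.8% of all tested genes called. They included CTSB, with 119.5, 244 and 206 FPKM in EGFR-low and 17.1, 29.7 and 74.1 FPKM in EGFR-high DMSO libraries (2.40 ± 0.41, adjusted p = 0.000695). CTSS was 28.4, 39.5 and 41.2 FPKM in EGFR-low and 0.259, 0.198 and 8.99 FPKM in EGFR-high DMSO libraries (3.90 ± 0.63, adjusted p = 0.000520), the last value again from EGFR-high DMSO replicate 3. Without this library and EGFR-low DMSO replicate 1 the differences were 3.25 for CTSB and 5.07 for CTSS. CTSS is among the genes by which EGFR-high DMSO replicate 3 was set apart, so its larger difference partly follows from that choice. CTSS also met the requirement through the libraries labelled EGFR-low and EGFR-high DMSO replicate 3 only.

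Of 23 membrane and secreted serine proteases and their inhibitors 15 were tested in untreated cells. TMPRSS4, a membrane serine protease, was higher in EGFR-low cells (2.88, 4.13 and 1.75 FPKM) than in EGFR-high cells (0.396, 0.625 and 0.465 FPKM), a difference of 1.35 ± 0.25 (adjusted p = 0.0119). It was the only 1 of the 15 called in this comparison, beside 3.81% of all tested genes. Only the EGFR-low libraries and parental replicate 2 reached 1 FPKM, so TMPRSS4 entered because EGFR-low cells were high. Of 18 tested in the vorinostat experiment, 3 were higher and 10 lower in EGFR-low DMSO libraries, beside the same 51.8%. KLK5, a kallikrein of epithelia, was 38.6, 1.01 and 0.508 FPKM in EGFR-low and 137, 156 and 127 FPKM in EGFR-high DMSO libraries, and PI3 (elafin), an elastase inhibitor, was 17.7, 0.390 and 0.172 FPKM against 71.1, 87.4 and 59.4 FPKM. KLK8 differed by -5.71 ± 0.69 after vorinostat (adjusted p = 5.32e-05). Of the libraries labelled EGFR-low, PI3 reached 1 FPKM in DMSO replicate 1 only, and KLK5 and KLK8 in DMSO replicates 1 and 2 only. These genes thus entered through the EGFR-high libraries.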
